A study of Mus musculus with 17 samples.

Results

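A set of 9 genes of cell cycle entry and proliferation was followed in CD8+ T cells, the lineage of cytotoxic T lymphocytes, isolated from mouse brain and blood. The genes were picked by name: the 9 rows of the count table, out of 48709, that carry the symbols Ccnd2, Ccnd3, Cdk4, Cdkn1b, H2afz, Hmgb2, Stmn1, Mki67 and Top2a. The list was drawn up with earlier results of these data known, and which values entered that choice is not recorded. All differences between groups in these 9 genes are therefore given as descriptions. The adjusted p-values beside them come from a fit over all tested genes and are no independent evidence for the list.

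The 17 libraries fall into 4 groups: 4 from APP-PS1 brain, 3 from APP-PS1 blood, 5 from wild type (WT) brain and 5 from WT blood. APP-PS1 mice are an amyloid model of Alzheimer's disease. They carry a chimeric mouse/human amyloid precursor protein (Mo/HuAPP695swe) and a human presenilin 1 variant (PS1-dE9), both driven by the prion protein promoter and aimed at neurons of the central nervous system. The control mice are labelled wild type. Per the labels, animals were bred under specific-pathogen-free conditions and were moved out of them shortly before use, no drug treatment is named, and the ages were not given beyond the word aged in the title and design text. The APP-PS1 brain libraries came from 3 males and 1 female, the APP-PS1 blood libraries from 2 males and 1 female, and all 10 WT libraries from females, so strain and sex cannot be fully told apart. The mice numbered 7 APP-PS1 and 10 WT per the design text, as many as the libraries of each strain. Replicate numbers used here follow the order of the samples and are not in the labels. No label says that libraries came from separate animals, or which brain and blood libraries share an animal, so p-values reflect only how these samples spread, partly perhaps for technical reasons.

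Depth was low, at 27646 to 214670 counts each, so that 1 count was worth 4.66 to 36.2 CPM (counts scaled to the library total). The 3 APP-PS1 blood libraries held 39055 to 46336 counts and all 5 WT blood libraries held more, 62604 to 214670. Of the CD8 T cell markers 9 of 9 were detected. They summed to 8392 to 10435 CPM in APP-PS1 brain and 6990 to 7810 CPM in APP-PS1 blood. The sums were 9088 to 11552 CPM in WT brain and 8019 to 10018 CPM in WT blood. Of the CD4 T cell markers 1 of 3 was detected, Cd40lg, with 4 counts over WT brain and 2 over WT blood. Cd4 and Foxp3 had 0 counts in every library. Of the red cell markers 4 of 6 were detected, and their sum separated the tissues: 36.2 to 368 CPM in APP-PS1 brain and 156 to 873 CPM in WT brain, against 2970 to 8072 CPM in APP-PS1 blood and 2152 to 9967 CPM in WT blood. The B cell markers, 4 of 8 detected, summed to 53.3 to 574 CPM in APP-PS1 brain, 146 to 302 CPM in APP-PS1 blood, 40.8 to 97.7 CPM in WT brain and 108 to 419 CPM in WT blood, so that the WT tissues did not overlap. Natural killer markers, 4 of 5 detected, summed to 17.8 to 305 CPM in APP-PS1 brain, 43.2 to 146 CPM in APP-PS1 blood, 39.1 to 261 CPM in WT brain and 95.8 to 379.6 CPM in WT blood. Microglia markers, 4 of 8 detected, stayed at or under 195 CPM in every library, neural and glial markers (5 of 8) at or under 196 CPM and myeloid markers (4 of 7) at or under 94.9 CPM. At 0 throughout were the red cell gene Alas2, Ms4a1 of B cells, Ncr1 of natural killer cells and P2ry12 and Tmem119 of microglia.

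Resting T cells sit outside the cell cycle. Entry begins when D-type cyclins bind the kinases CDK4 and CDK6, which phosphorylate the retinoblastoma protein and so free E2F factors to switch on genes of DNA replication. The inhibitor p27, the product of Cdkn1b, restrains cyclin-dependent kinases in resting lymphocytes and is degraded as they enter the cycle. The products of the late genes act in S phase, G2 and mitosis, and their transcripts are scarce in cells that do not divide. Many late genes are activated through CCAAT boxes, which bind the factor NF-Y, and are held down outside those phases through the cell cycle genes homology region (CHR).

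Promoter sequence is shown for the chromatin genes H2afz and Hmgb2 and the late genes Mki67 and Top2a. All 4 had their highest WT blood value in the same library, WT blood replicate 5, as did Cdkn1b and Stmn1. Each stretch is the 250 bases before the RefSeq start on GRCm38.p6, 5′ to 3′ along the gene: chr7:135716380-135716629 on the minus strand for Mki67, chr11:99024190-99024439 on the minus strand for Top2a, chr8:57511593-57511842 on the plus strand for Hmgb2, and chr3:137864237-137864486 on the plus strand for H2afz, which RefSeq lists as H2az1. Capitals mark CCAAT or its reverse complement ATTGG, and the CHR letters TTTGAA or their reverse complement TTCAAA.
Mki67: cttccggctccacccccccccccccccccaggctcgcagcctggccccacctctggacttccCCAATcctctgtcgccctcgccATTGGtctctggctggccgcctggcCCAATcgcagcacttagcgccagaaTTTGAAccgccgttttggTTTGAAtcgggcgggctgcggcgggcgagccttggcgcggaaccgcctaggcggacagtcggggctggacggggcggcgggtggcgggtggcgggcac
Top2a: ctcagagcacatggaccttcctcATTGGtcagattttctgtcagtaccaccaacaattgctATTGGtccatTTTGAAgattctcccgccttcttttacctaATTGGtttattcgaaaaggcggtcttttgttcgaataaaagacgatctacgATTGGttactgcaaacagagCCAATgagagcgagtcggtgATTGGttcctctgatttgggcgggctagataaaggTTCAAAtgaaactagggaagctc
Hmgb2: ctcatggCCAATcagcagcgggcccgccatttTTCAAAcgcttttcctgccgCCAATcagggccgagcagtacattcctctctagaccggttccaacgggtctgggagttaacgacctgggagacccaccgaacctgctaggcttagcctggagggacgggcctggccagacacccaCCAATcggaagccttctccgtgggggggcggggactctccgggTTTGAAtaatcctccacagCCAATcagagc
H2afz: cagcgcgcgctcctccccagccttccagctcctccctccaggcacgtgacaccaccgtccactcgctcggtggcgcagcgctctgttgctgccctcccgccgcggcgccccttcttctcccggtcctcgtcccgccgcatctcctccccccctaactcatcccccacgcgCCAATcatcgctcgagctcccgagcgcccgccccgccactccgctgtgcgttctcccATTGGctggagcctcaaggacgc
Mki67 held 3 CCAAT and 2 CHR matches, Top2a held 6 and 2, Hmgb2 held 4 and 2, and H2afz held 2 CCAAT matches and no CHR match. The window of Cdkn1b, not printed, also held 2 CCAAT matches and no CHR match. Among all 32851 promoters of the same length in the RefSeq table, 33.8% held CCAAT, 16% held TTTGAA and 5.55% held both, counting either strand. No E2F match, spelled TTTCCCGC, TTTCGCGC, TTTGCCGC or TTTGGCGC, was found in these windows, against 1.86% of all promoters. A match is a description of the letters and says nothing about binding. RefSeq promoter entries were found for 7 of the 9 genes, and those of Ccnd2 and Stmn1 were not analysed here.

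Of the 9 genes, 6 were abundant enough to be tested among 2366 genes: the cyclins Ccnd2 and Ccnd3, the kinase gene Cdk4, the inhibitor gene Cdkn1b and the chromatin genes H2afz and Hmgb2. Stmn1, Mki67 and Top2a fell below the expression filter of about 117 CPM in at least 3 libraries. Averaged over both strains, Ccnd2 was higher and H2afz lower in brain than in blood, and no other of the 6 was called. Called means an adjusted p under 0.05 in edgeR's quasi-likelihood test, and 2.62% of all tested genes were called in this contrast, 30 higher and 32 lower in brain. In such bulk libraries, fewer cells that express a gene and less of its RNA per cell cannot be told apart.

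**Figure D1:**
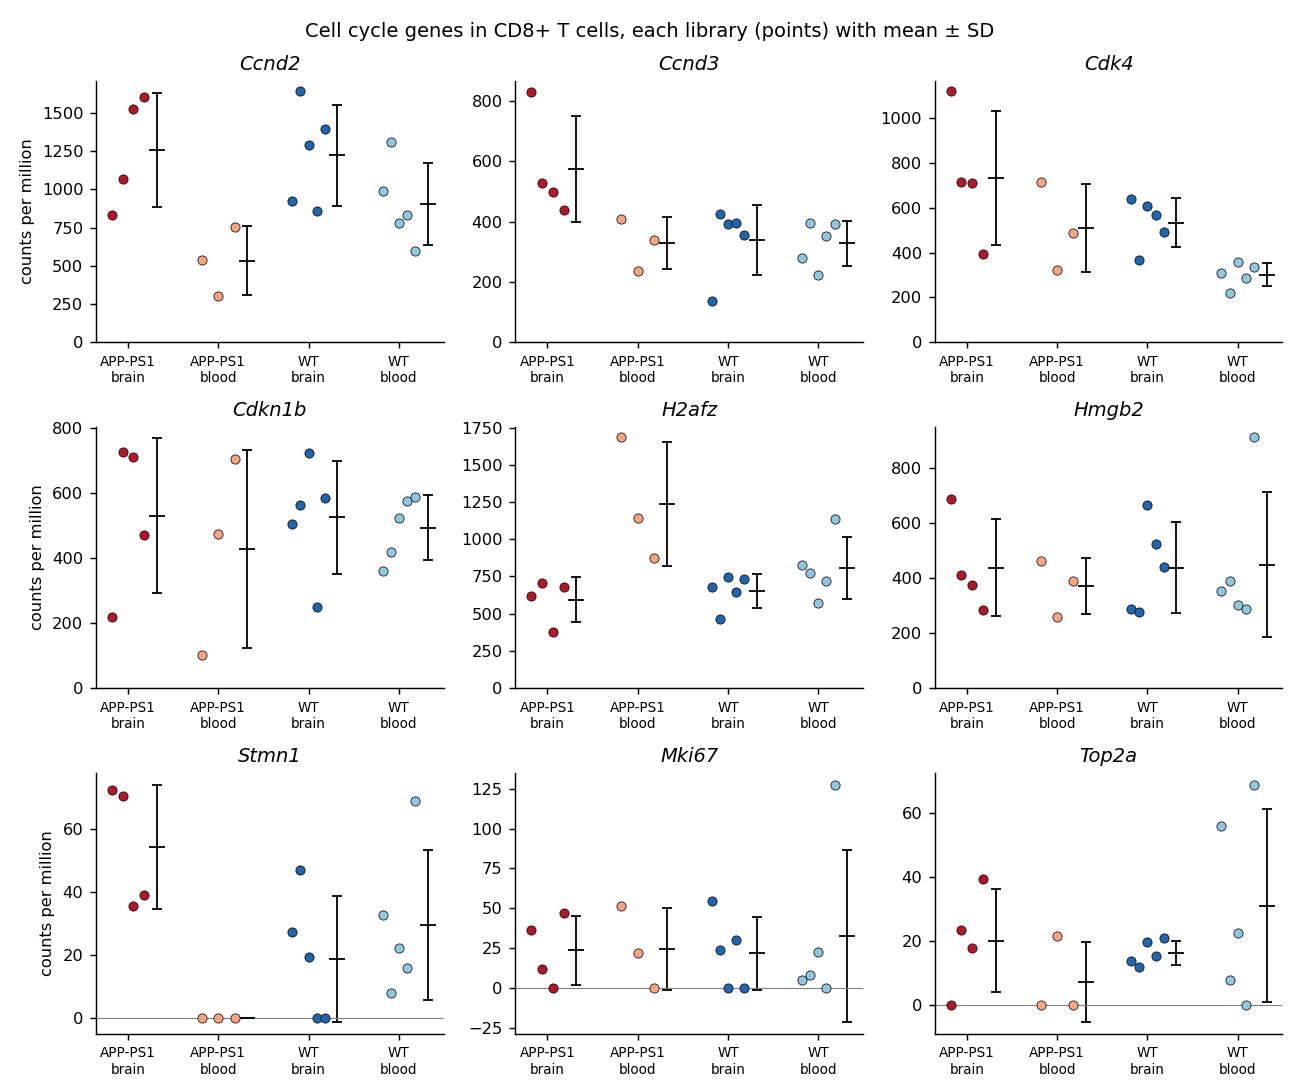
CPM of each of the 9 genes (vertical axes, each panel on its own scale) in every library (points), with the mean and SD beside each group. Ccnd2 in APP-PS1 brain lies above all 3 APP-PS1 blood libraries, H2afz lies below them, and 1 WT blood library is high for Hmgb2 and Mki67.

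Ccnd2 encodes cyclin D2, a D-type cyclin induced by mitogens in lymphocytes. It lies at chr6:127125162-127152193 on the minus strand (GRCm38). It had 832, 1065, 1529 and 1605 CPM in the 4 APP-PS1 brain libraries and 538, 302 and 754 CPM in the 3 APP-PS1 blood libraries. The 5 WT brain libraries had 925, 1642, 1290.0, 857 and 1398 CPM, and the 5 WT blood libraries 988, 1313, 780.5, 831 and 599 CPM. All APP-PS1 brain libraries lay above all APP-PS1 blood libraries, whereas the WT ranges overlapped. Averaged over both strains, Ccnd2 was 1.77-fold higher in brain (log2 fold change 0.82, SE 0.21, adjusted p = 0.0174 by edgeR). Within APP-PS1 the log2 fold change was 1.27 (SE 0.34, adjusted p = 0.0584 by edgeR), and within WT it was 0.38 (95% interval -0.12 to 0.87, adjusted p = 0.778 by edgeR). The difference between these strain-specific values, 0.90 (SE 0.42), had an adjusted p of 0.945 by edgeR, and so was not shown. Within APP-PS1 the adjusted p ran from 0.0319 to 0.334 when single libraries were left out, and it passed the threshold in 4 of 17 cases. The pooled call depended on single libraries. Its adjusted p was 0.0516 without APP-PS1 brain replicate 3, 0.0680 without APP-PS1 brain replicate 4, 0.0602 and 0.123 without APP-PS1 blood replicates 1 and 2, and 0.0522 without WT brain replicate 2. The fold change kept its sign each time.

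Ccnd3, at chr17:47505051-47599691 on the plus strand, encodes cyclin D3, the D-type cyclin that dividing thymocytes depend on. It had 832, 527, 498 and 438 CPM in APP-PS1 brain and 409.7, 237 and 341 CPM in APP-PS1 blood. In WT brain it had 136, 424, 391, 395 and 355 CPM, and in WT blood 279.5, 395, 223, 351 and 393 CPM. The APP-PS1 brain libraries thus lay above every library of the other groups, although the lowest of them exceeded the highest WT brain library only narrowly. No comparison was called for Ccnd3: the log2 fold change was 0.74 (SE 0.39, adjusted p = 0.495) for APP-PS1 brain over APP-PS1 blood and 0.63 (SE 0.31, adjusted p = 0.999) for APP-PS1 brain over WT brain, both by edgeR. WT brain and WT blood averaged 340.0 ± 117 and 328 ± 75.3 CPM (SD, n = 5 each). The number of Ccnd2 counts per Ccnd3 count ranged from 1.00 to 3.66 in APP-PS1 brain, 1.27 to 2.21 in APP-PS1 blood, 2.17 to 6.80 in WT brain and 1.52 to 3.53 in WT blood, so Ccnd2 counts were at least as many as Ccnd3 counts in all 17 libraries.

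Cdk4, at chr10:127063534-127067920 on the plus strand, encodes the kinase partner of the D-type cyclins. It had 1121, 714, 711 and 392 CPM in APP-PS1 brain and 717, 324 and 487 CPM in APP-PS1 blood, with overlapping ranges. The WT groups did not overlap: WT brain had 639.7, 365, 606, 569 and 490.4 CPM, and WT blood had 307, 221, 357, 288 and 334 CPM. The lowest WT brain library was close to the highest WT blood library. Brain over blood, the log2 fold change was 0.74 in WT (SE 0.28, adjusted p = 0.336), 0.46 in APP-PS1 (SE 0.35, adjusted p = 0.716) and 0.60 averaged over both strains (SE 0.22, adjusted p = 0.158), with no call by edgeR. Cdk4 shares exonic sequence with Tspan31, a tetraspanin gene on the opposite strand, which had 133 counts over all libraries against 685 for Cdk4. No source used here gives the strand setting of the counting, and reads of the shared stretch cannot be told apart. Tspan31 averaged 130.2 CPM in APP-PS1 brain, 39.1 CPM in APP-PS1 blood, 89.4 CPM in WT brain and 68.7 CPM in WT blood, and its part in the Cdk4 values was not tested.

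Cdkn1b, at chr6:134920401-134925513 on the plus strand, encodes p27. It had 217, 726, 711 and 469.8 CPM in APP-PS1 brain and 102, 475 and 706 CPM in APP-PS1 blood. WT brain had 504, 565, 723, 250.4 and 584 CPM, and WT blood had 359, 419, 524, 575 and 589 CPM. All groups overlapped, and no comparison was called. The log2 fold change of brain over blood was 0.32 (95% interval -0.51 to 1.15) in APP-PS1 and 0.02 (95% interval -0.61 to 0.65) in WT, so changes within those intervals were not resolved at this depth. The lowest values rest on 6 counts in APP-PS1 brain replicate 1 and 4 counts in APP-PS1 blood replicate 1. The same pair of libraries had the highest Cdk4 CPM of their groups, at 31 counts in the brain library and 28 in the blood library. Cdk4 counts per Cdkn1b count were 5.17 in APP-PS1 brain replicate 1 and 7.00 in APP-PS1 blood replicate 1, while the other APP-PS1 libraries ranged from 0.682 to 1.00. WT brain ranged from 0.646 to 2.27 and WT blood from 0.500 to 0.857.

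**Figure D2:**
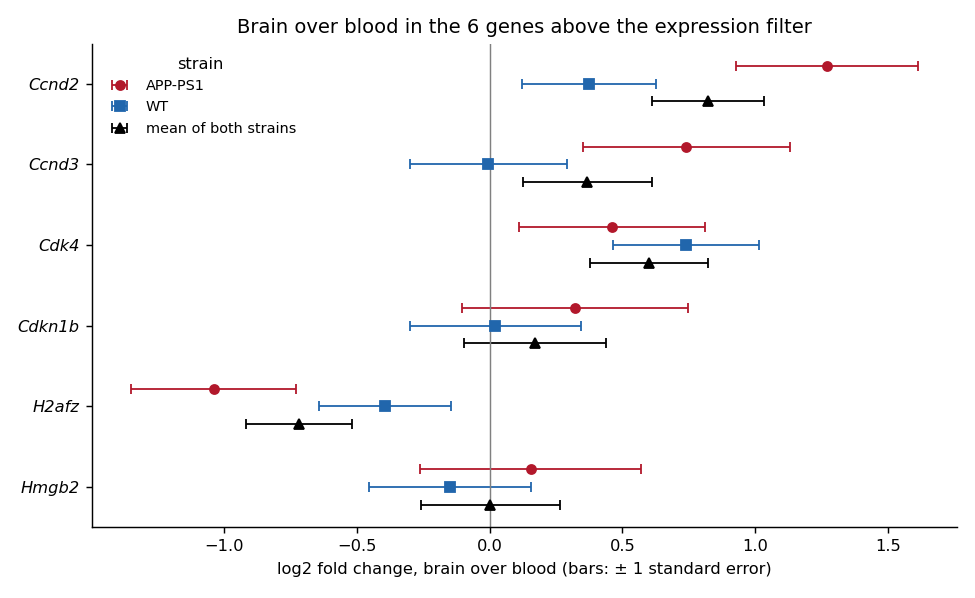
Log2 fold change of brain over blood from edgeR (horizontal axis) for the 6 tested genes, within APP-PS1, within WT and averaged over both strains (symbols), with bars of 1 standard error. Ccnd2 lies to the right of 0 and H2afz to the left in each strain, and the bars of Cdkn1b and Hmgb2 span 0.

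H2afz, at chr3:137864487-137866922 on the plus strand, encodes the histone variant H2A.Z, which replaces H2A at promoters and is also transcribed outside S phase. It was the one of the 6 called lower in brain. It had 615, 702, 373 and 681 CPM in APP-PS1 brain, against 1689.9, 1144 and 876 CPM in APP-PS1 blood. The WT brain libraries had 680.5, 465, 743, 645 and 730.4 CPM, against 829.2, 775, 569, 719 and 1139 CPM in WT blood. The APP-PS1 groups did not overlap and the WT groups did. Averaged over both strains, H2afz in brain was at 0.609 of its level in blood (log2 fold change -0.72, SE 0.20, adjusted p = 0.0314 by edgeR). The strain-specific values were -1.04 in APP-PS1 (SE 0.31, adjusted p = 0.0975) and -0.39 in WT (SE 0.25, adjusted p = 0.776), and their difference of -0.64 (SE 0.40, adjusted p = 0.945) was not shown, all by edgeR. Leaving out 1 library ended the pooled call in 5 of 17 cases: the adjusted p was 0.0823 without APP-PS1 brain replicate 3, 0.136 and 0.0785 without APP-PS1 blood replicates 1 and 2, 0.0712 without WT brain replicate 2 and 0.0567 without WT blood replicate 5. The call was also lost with other expression filters and at matched depth (adjusted p = 0.185 to 0.236 by edgeR). Red cell gene sums were also lower in brain, with at most 873 CPM in any brain library and at least 2152 CPM in any blood library, and in WT the B cell sums were lower in brain too. The part of either in this and the other tissue differences was not tested. Annotated near copies of H2afz held 6 counts in all, against 1150 for H2afz.

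**Figure D3:**
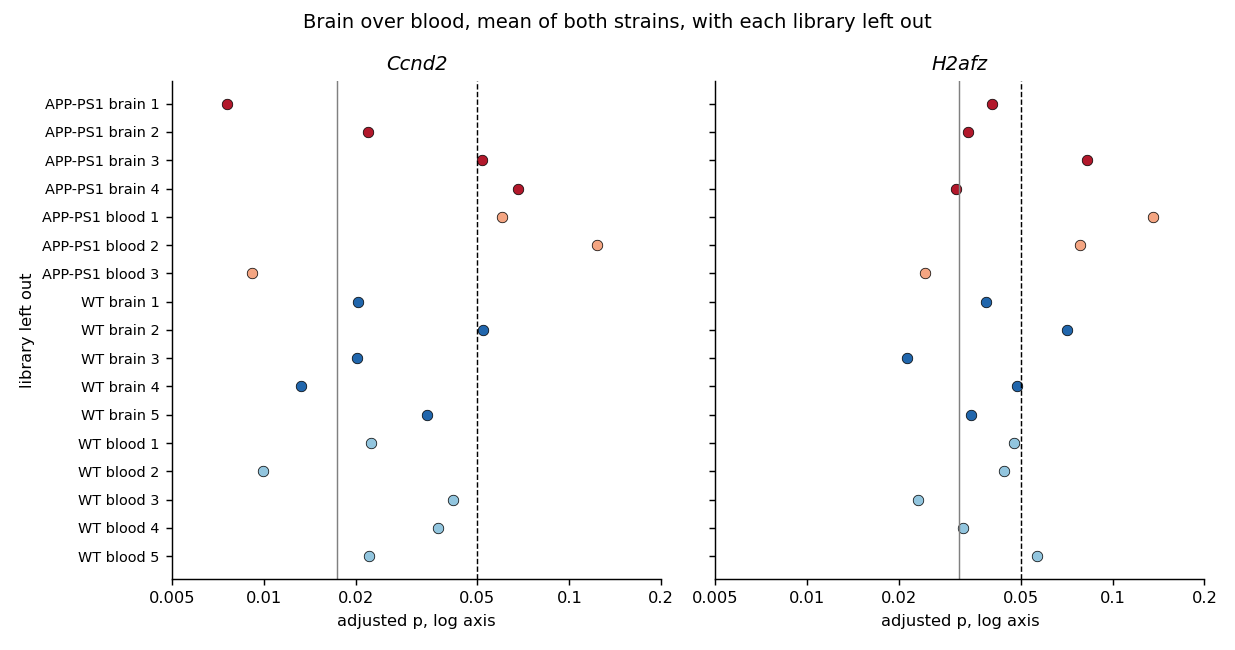
Adjusted p of Ccnd2 and H2afz for brain over blood, averaged over both strains (horizontal axis, log scale), when each of the 17 libraries (rows) was left out. The grey line marks the value with all libraries, 0.0174 for Ccnd2 and 0.0314 for H2afz, and the dashed line marks 0.05; in each panel 5 points lie to the right of it.

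Hmgb2, at chr8:57511907-57515999 on the plus strand, encodes a high-mobility-group protein that bends DNA and is abundant in proliferating lymphoid cells. It had 687, 409.8, 373 and 282 CPM in APP-PS1 brain, 461, 259 and 389 CPM in APP-PS1 blood, and 286, 277, 665, 524 and 438 CPM in WT brain. WT blood had 354, 388, 301, 288 and 913 CPM, with replicate 5 far above the other 4. The averaged brain over blood log2 fold change was 0.00 (95% interval -0.51 to 0.52, adjusted p = 0.996 by edgeR). H2afz counts per Hmgb2 count ranged from 0.895 to 2.42 in APP-PS1 brain, 2.25 to 4.42 in APP-PS1 blood, 1.12 to 2.38 in WT brain and 1.25 to 2.50 in WT blood.

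The 3 late genes were sparse in every group. Mki67, at chr7:135689784-135716361 on the minus strand, encodes Ki-67, which coats mitotic chromosomes. Top2a, at chr11:98992943-99024189 on the minus strand, encodes topoisomerase II alpha, which untangles replicated DNA. Stmn1, at chr4:134468320-134473843 on the plus strand, encodes stathmin, which destabilises microtubules. Over all 17 libraries they had 40, 39 and 44 counts.

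Stmn1 had 72.3, 70.2, 35.6 and 39.2 CPM in APP-PS1 brain, from 2, 6, 2 and 5 counts, and 0 counts in all 3 APP-PS1 blood libraries. It had 27.2, 47.1, 19.5, 0 and 0 CPM in WT brain and 32.6, 7.91, 22.3, 15.97 and 68.7 CPM in WT blood. Pooled over libraries, APP-PS1 brain had 50.5 CPM (95% exact Poisson interval 28.3 to 83.3, counting error only), while 0 counts in APP-PS1 blood allow up to 23.7 CPM, the level of 3 counts over the group. Measured against that floor, the pooled level was at least 2.13-fold higher in APP-PS1 brain, but this leaves out the counting error of the brain value: the exact Poisson upper limit of 0 counts is 29.2 CPM, so the intervals of APP-PS1 brain and APP-PS1 blood overlapped narrowly. WT blood pooled to 30.2 CPM (Poisson interval 17.9 to 47.8), with 7 of its 18 counts in replicate 5. Without that library WT blood averaged 19.7 CPM, under the floor of APP-PS1 blood, so no direction is given between the blood groups. Neither the difference from APP-PS1 brain nor that from WT blood was called in a fit without an expression filter over 13539 genes (adjusted p = 0.742 and 0.719 by edgeR). The APP-PS1 blood libraries were also among the shallowest.

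Mki67 had 36.2, 11.7, 0 and 47.0 CPM in APP-PS1 brain and 51.2, 21.6 and 0 CPM in APP-PS1 blood. It had 54.4, 23.5, 0, 30.3 and 0 CPM in WT brain and 4.66, 7.91, 22.3, 0 and 128 CPM in WT blood. Every group held at least 1 library with 0 counts. Pooled levels were 26.9 CPM in APP-PS1 brain, 23.7 CPM in APP-PS1 blood, 23.0 CPM in WT brain and 28.6 CPM in WT blood, and the Poisson intervals of all 4 overlapped. Top2a had 0, 23.4, 17.8 and 39.2 CPM in APP-PS1 brain and 0, 21.6 and 0 CPM in APP-PS1 blood. It had 13.6, 11.8, 19.5, 15.2 and 20.9 CPM in WT brain and 55.9, 7.91, 22.3, 0 and 68.7 CPM in WT blood. Its pooled levels were 26.9 CPM (Poisson interval 11.6 to 53.1) in APP-PS1 brain, 7.91 CPM (0.2 to 44.1) in APP-PS1 blood, 15.3 CPM (6.61 to 30.2) in WT brain and 37.0 CPM (23.2 to 55.96) in WT blood. No comparison of Mki67 or Top2a was called in the unfiltered fit. For WT brain over WT blood, the log2 fold change was -0.62 (SE 0.95) for Mki67 and -1.15 (SE 1.00) for Top2a. The direction of Mki67 rests on WT blood replicate 5, which held 13 of the 17 WT blood counts. Mki67 averaged 21.7 CPM in WT brain against 8.72 CPM in WT blood without that library, and 32.5 CPM with it. Of the 22 Top2a counts in WT blood, 12 were in replicate 1 and 7 in replicate 5.

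WT blood replicate 5 held 27 of the counts of these 3 genes, the most of any library, equal to 265 CPM, while the other 16 libraries had 0 to 20 counts and 0 to 125 CPM. Its 13 Mki67 counts made 128 CPM, against 0 to 22.3 CPM in the other WT blood libraries. Hmgb2 in it was at 913 CPM against 288 to 388 CPM, and H2afz at 1139 CPM against 569 to 829.2 CPM. Ccnd2 in it was the lowest of the WT blood values, at 599 CPM. Summed over 32 other S phase genes, it had 982 CPM, within the 759 to 1034 CPM of the other WT blood libraries. Over 44 other G2 and mitosis genes it had 1090 CPM, against 702 to 1029.5 CPM in the other WT blood libraries. WT brain replicates 3 and 4 and APP-PS1 brain replicate 4 had more for those genes, 1173, 1533 and 1112 CPM. WT blood replicate 5 also had the highest share of Actb, 14.7% of its counts, where the 17 libraries ranged from 2.24% upward. Without it, WT blood averaged 8.72 CPM for Mki67, 333 CPM for Hmgb2 and 723 CPM for H2afz, against 32.5, 449 and 806 CPM with it.

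**Figure D4:**
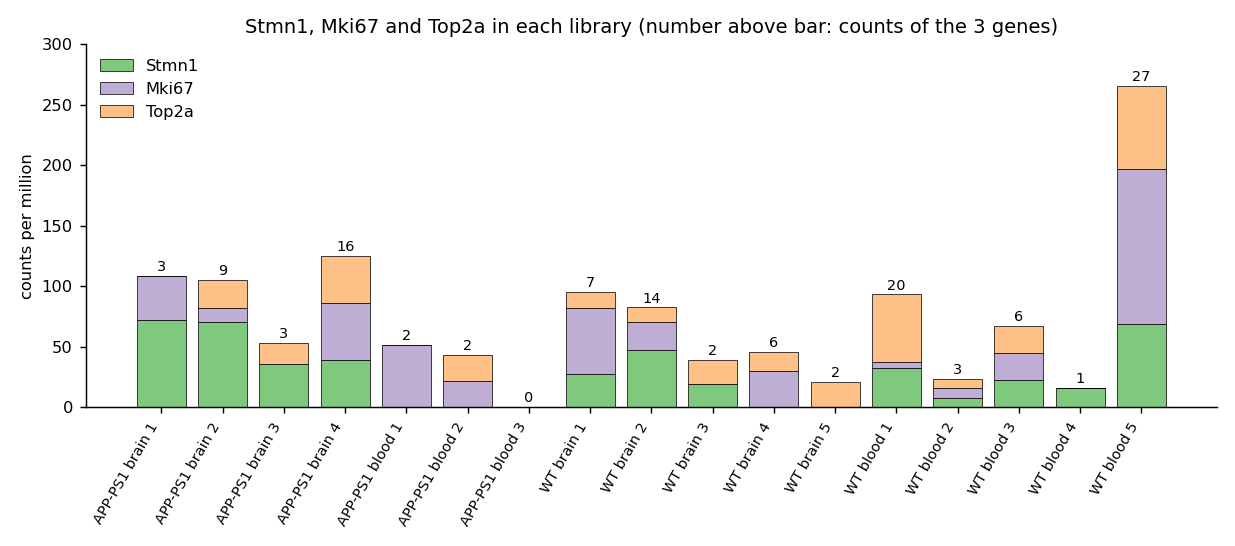
Stacked CPM of Stmn1, Mki67 and Top2a (vertical axis) in each of the 17 libraries (horizontal axis), with the summed counts written above each bar. WT blood replicate 5 has the tallest bar, 265 CPM from 27 counts, and APP-PS1 blood replicate 3 has 0 counts.

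Between strains, no listed gene was called. In APP-PS1 brain over WT brain, 0.00% of the 2366 tested genes were called by edgeR, and DESeq2 and limma voom also called 0. An unadjusted p under 0.05 by edgeR was seen for 98 genes, a share below the 0.05 that chance alone gives on average. Here the 6 tested genes had a median log2 fold change of 0.03, against -0.04 for all genes. Ccnd2 was at 0.02 (95% interval -0.51 to 0.54) and Cdk4 at 0.35 (95% interval -0.21 to 0.92). In APP-PS1 blood over WT blood, 0.0423% of genes were called. Ccnd2 was at -0.88 there (SE 0.33), Cdk4 at 0.63 (SE 0.34) and H2afz at 0.49 (SE 0.29), with adjusted p-values of 0.429, 0.662 and 0.694 by edgeR, and the median of the 6 was -0.18 against -0.05 for all genes. The contrast of the tissue differences between strains also had 0.0423% of genes called, and none of the 6.

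Averaged over both strains, the 6 genes had a median log2 fold change of brain over blood of 0.27, against 0.03 for all genes. In APP-PS1 brain over APP-PS1 blood, 0 of the 6 were called, against 0.549% of all genes, and 3 of the 6 had ranges that did not overlap (Ccnd2 and Ccnd3 higher, H2afz lower), against 9.04% of all genes. In WT brain over WT blood, 0 of the 6 were called, against 0.761%, and Cdk4 was without overlap, against 2.62%. Ccnd3 was without overlap between APP-PS1 brain and WT brain, against 1.56%, and none of the 6 between APP-PS1 blood and WT blood, against 6.93%. The list was chosen with such results known, so nothing is read from these shares. The comparisons share groups of libraries and are not independent of each other.

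The wider pathway was described with 10 lists of 159 other genes, of which 41 were abundant enough to be tested. None of the 41 was called in any of the 6 contrasts. In APP-PS1 brain over APP-PS1 blood, 24 had log2 fold changes above 0 and 17 below, and their median was 0.29 against 0.03 for all genes. In WT brain over WT blood the split was 21 and 20, with a median of 0.03 against 0.02. The lowest adjusted p in any contrast was 0.0702, for Pttg1 (securin, the inhibitor of sister chromatid separation), with a log2 fold change of 0.93 for brain over blood averaged over both strains by edgeR. Pttg1 averaged 316 ± 106 CPM in APP-PS1 brain (n = 4), 172 ± 97.7 CPM in APP-PS1 blood (n = 3), 375 ± 125 CPM in WT brain (n = 5) and 182 ± 67.8 CPM in WT blood (n = 5).

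Of the G1 cyclins and their kinases 2 of 10 were tested, Cdk6 and Ccnh. Cdk6, the other kinase partner of the D-type cyclins, averaged 305 ± 33.4 CPM in APP-PS1 brain (SD, n = 4), 92.6 ± 63.9 CPM in APP-PS1 blood (n = 3), 159 ± 67.0 CPM in WT brain (n = 5) and 172 ± 53.7 CPM in WT blood (n = 5). Its log2 fold change for APP-PS1 brain over APP-PS1 blood was 1.66, with an adjusted p of 0.17 by edgeR. Among the other inhibitors 1 of 7 was tested, Cdkn2d, which encodes p19 of the INK4 family. It averaged 156 ± 58.6 CPM in APP-PS1 brain, 139.8 ± 123 CPM in APP-PS1 blood, 65.3 ± 32.3 CPM in WT brain and 98.3 ± 39.3 CPM in WT blood, with SD and group sizes as before here and below. Of the p27 turnover genes 3 of 7 were tested. Rbx1, a ubiquitin ligase subunit, had 267 ± 104 CPM in WT brain against 495 ± 144 CPM in WT blood (log2 fold change -0.92, adjusted p = 0.193 by edgeR). Its direction was opposite in APP-PS1, at 469 ± 105 CPM in brain against 341 ± 193 CPM in blood (log2 fold change 0.48, adjusted p = 0.744 by edgeR). Skp2, which recruits p27 to that ligase, was at 0 in every library. Of the retinoblastoma and E2F genes 2 of 15 were tested, led by Rbl2, a retinoblastoma relative of resting cells, with 184 ± 85.2 CPM in APP-PS1 brain, 86.4 ± 35.2 CPM in APP-PS1 blood, 149 ± 55.9 CPM in WT brain and 101 ± 71.1 CPM in WT blood.

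Replication and mitosis genes were mostly below the filter, with 4 of 32 S phase genes and 3 of 44 G2 and mitosis genes tested. Pcna, the sliding clamp of DNA polymerases, averaged 54.1 ± 53.9 CPM in APP-PS1 brain, 113 ± 115 CPM in APP-PS1 blood, 65.9 ± 44.1 CPM in WT brain and 82.5 ± 17.2 CPM in WT blood. Summed over the S phase list, CPM averaged 899 ± 339.6 in APP-PS1 brain, 897 ± 114 in APP-PS1 blood, 1006 ± 159 in WT brain and 916 ± 121 in WT blood. The G2 and mitosis list summed to 921 ± 132, 817 ± 68.4, 1019 ± 339.9 and 911 ± 179 CPM in the same order of groups. Most of this sum came from Pttg1, Smc4 and Bub3, which averaged 268, 243 and 96.9 CPM over all libraries, so it says little about the other genes of that list. The 8 pairwise differences gave exact two-sided permutation p-values of 0.286 to 0.971, or 0.931 to 0.971 after Benjamini-Hochberg adjustment. The smallest p the design allows is 0.0571 for 4 against 3 libraries and 0.00794 for 5 against 5.

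**Figure D5:**
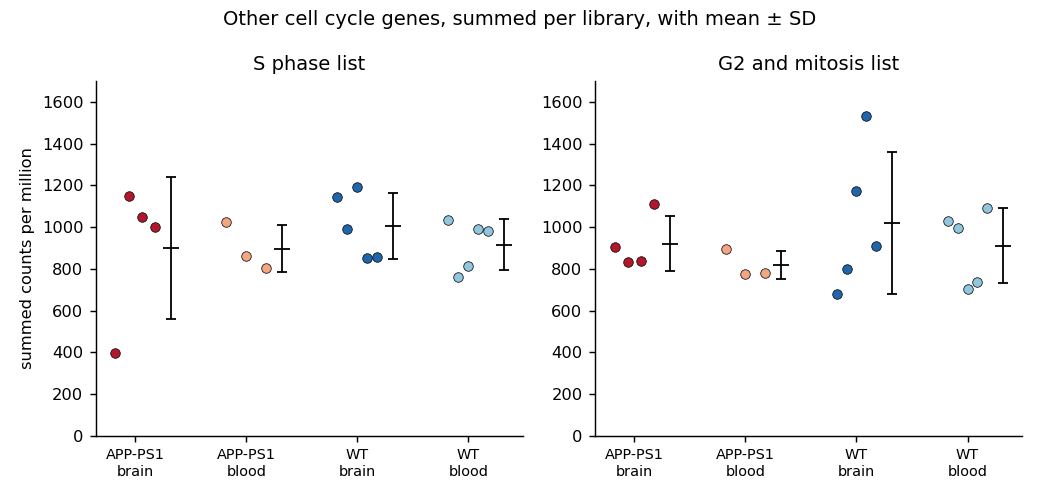
Summed CPM (vertical axes) of the S phase list and of the G2 and mitosis list, without the 9 genes, in every library (points), with the mean and SD of each group. The groups overlap in both panels, with means of 897 to 1006 CPM for S phase, and 1 APP-PS1 brain library is low for S phase.

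Abundant chromatin and cytoskeletal relatives were tested more often: 10 of 12 histone variant and chaperone genes, 4 of 8 high-mobility-group genes and 4 of 12 tubulin and stathmin genes, with 8 of 12 growth and G1 driver genes. H3f3b, which encodes the replication-independent histone H3.3, averaged 1231 ± 271 CPM in APP-PS1 brain, 749.6 ± 272 CPM in APP-PS1 blood, 1586 ± 679 CPM in WT brain and 1244 ± 373 CPM in WT blood. Its log2 fold change for APP-PS1 blood over WT blood was -0.82, with an adjusted p of 0.495 by edgeR. Hmgn2, a nucleosome-binding protein gene, averaged 176 ± 54.2 CPM in APP-PS1 brain, 348 ± 114 CPM in APP-PS1 blood, 181 ± 25.1 CPM in WT brain and 207 ± 68.5 CPM in WT blood. Hmgb1, the close relative of Hmgb2, averaged 801 ± 273, 597 ± 66.6, 738 ± 168 and 582.5 ± 253 CPM in the same order of groups.

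Levels were compared between genes per kilobase of annotated exon, with the limit that no source used here gives the library chemistry. H2afz stood first in all 4 groups, at 334 ± 85.1 CPM per kilobase in APP-PS1 brain, 696 ± 234 in APP-PS1 blood, 368 ± 63.1 in WT brain and 454 ± 118 in WT blood. The next 4 genes changed places between groups. Cdk4 had 226 CPM per kilobase in APP-PS1 brain, 157 in APP-PS1 blood and 164 in WT brain, ahead of the other 3, but 92.8 in WT blood, behind them. Hmgb2 had 146, 123, 146 and 149 CPM per kilobase in APP-PS1 brain, APP-PS1 blood, WT brain and WT blood. Cdkn1b had 117, 93.9, 115 and 108, and Ccnd2 had 134, 56.5, 129.9 and 95.9 CPM per kilobase in the same order of groups. In WT blood these 4 lay within the spread of each other, with an SD of 87.5 CPM per kilobase for Hmgb2. Ccnd3 followed at 37.4 to 65.4 CPM per kilobase over the groups, then Stmn1 at 0 to 28.3, with Mki67 and Top2a at no more than 3.44.

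Across the 17 libraries, Ccnd2 and H2afz varied in opposite directions, with a Pearson correlation of -0.67 of log2 CPM, and of -0.31 once each library was set against its group mean. Within groups Hmgb2 varied with Ccnd3 at 0.57 and with Cdk4 at 0.52. Close behind were Ccnd2 with Cdk4 at -0.49 and H2afz with Hmgb2 at 0.48. The tested genes most like Ccnd2 across libraries were Ythdf2 (0.84, and 0.76 within groups), Insl6, Mndal and Arid1b. Those most like H2afz were Arl6ip5 (0.82, and 0.70 within groups), Ier2, Tmed9 and Ubb, and those most like Cdk4 were Tgtp2 (0.86, and 0.80 within groups), Chtop, Spint2 and Cbx7. These correlations are descriptions over libraries that share group, depth and preparation. Pairs within the list were picked as the strongest among the tested members, and the other genes as the highest among 2366 genes.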

How the data were processed

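RNA sequencing of CD8+ T cells gave 17 libraries in 4 groups, taken from the labels. The authors deposited raw whole-number counts for each gene and library. Per the submitters' processing notes, the build was GRCm38 and the tools were DESeq2, HTSeq 0.11.2, Bowtie2 2.2.2 and FastQC, with no role or order given. No source used here gives the strand setting or library chemistry.

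Chi-square tests of the 29 same-group library pairs gave 2.59 to 5.69 per degree of freedom, so each library was counted once. Coordinates came from GENCODE M21 (48349 of 48709 genes matched by identifier). Testing used edgeR 4.0.16 (R 4.3.3) with TMM, filterByExpr (2366 genes), 1 mean per group over all libraries, quasi-likelihood F tests and Benjamini-Hochberg adjustment over all tested genes, called under 0.05. CPM are on total counts. Standard errors are the absolute log2 fold change over the square root of F. Intervals cover 95%, and Poisson intervals and the floor of 3 counts cover counting error only. Genes below the filter were fitted with no filter (13539 genes). List sums were compared by exact permutation tests in SciPy 1.17.1, near copies were found with blastn 2.17.0, and figures were drawn with matplotlib 3.10.9. Of these steps, the edgeR fit was tested on simulated counts with a spread common to all genes, and the permutation test on small made-up groups.

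The 9 genes and all lists (214 symbols, 213 analysed here) were chosen with earlier results of these data known. Named are the 9 genes, called genes and up to 3 most abundant genes of each list, and the 4 genes most correlated with each of the 3 most abundant of the 9; not all are printed. Genes named for the lowest adjusted p of a contrast were chosen after their values were seen. Alternatives tried were limma voom (limma 3.58.1), DESeq2 1.42.0, RLE size factors, 2 other filters, only the groups compared, a sex term, thinning to 27646 counts, fits without mitochondrial, ribosomal protein and haemoglobin genes, and leaving out each library. Leaving out 2 libraries together was added after seeing the data.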

Additional observations from a re-analysis of the deposited data

Results flagged for a closer look

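Of 39 groups of values examined for 1 library far from the others, 4 were picked out, and chance picks out about 1 in 20. APP-PS1 blood, with 3 libraries, was too small a group for this and was not examined. In WT brain, Ccnd3 was at 136 CPM in replicate 1 (10 counts), below 355 to 424 CPM in the other 4 libraries. In WT blood, replicate 5 had 913 CPM of Hmgb2, against 288 to 388 CPM in the others. The same library had 128 CPM of Mki67, against 0 to 22.3 CPM in the others. In APP-PS1 brain, replicate 1 had 5.17 Cdk4 counts per Cdkn1b count, against 0.833 to 1.00 in the others, and it was the shallowest library, with 27646 counts. Among the unexamined APP-PS1 blood libraries, replicate 1 had a ratio of 7.00, against 0.682 and 0.69 in the others. What lies behind these values was not tested.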

How the results depend on the processing

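No paired analysis was possible because no label gives replicate numbers or ties brain to blood libraries. Of 960 alternative log2 fold changes of the tested members, 881 kept direction and side of the threshold and 57 changed sign, all among values with no call. The pooled Ccnd2 call held in all settings other than leaving out single libraries (adjusted p 0.0077 to 0.0321). The pooled H2afz call was lost with no expression filter (0.236), a 5 CPM filter (0.185), thinning (0.201) and without both APP-PS1 brain replicate 1 and WT blood replicate 5 (0.0687), which left 1 of the 9 genes called in each, where 46 of 13539, 55 of 10167, 25 of 675 and 71 of 2213 tested genes were called. Within APP-PS1, brain over blood, 1 of them (Ccnd2) was called with the 5 CPM filter (0.0398), a sex term (0.0394), thinning (0.0316) and without both libraries (0.0121), where 16, 17, 12 and 19 of all genes were called. The cause of these changes was not tested.

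Genes called within APP-PS1, brain over blood, numbered 7 by voom and 8 without mitochondrial, ribosomal protein and haemoglobin genes; within WT, 10 by voom and 10 thinned; averaged over strains, 38 by voom and 25 thinned. Blood between strains gave 7 with the 5 CPM filter, 5 with no filter, 4 with only the groups compared, 3 by voom, 3 without those gene classes, and 0 by DESeq2, with a sex term, thinned and without both libraries. The contrast between strains of the tissue difference gave 0 by DESeq2, by voom and thinned.

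Values that changed sign within APP-PS1, brain over blood, were Hmgb2 at -0.02 without both libraries. Within WT they were Ccnd3 at 0.005 (DESeq2), 0.001 (RLE) and 0.06 (without both), Cdkn1b at -0.007 (5 CPM) and -0.031 (no filter), and Hmgb2 at 0.27 (without both). In brain between strains they were Ccnd2 at -0.06 (5 CPM), -0.031 (voom) and -0.059 (no filter), Cdk4 at -0.10 (sex term), Cdkn1b at -0.016 (5 CPM), -0.019 (no filter) and -0.15 (thinned), and Hmgb2 at 0.007 (voom). Hmgb2 was at 0.01 without both libraries in blood between strains. In the contrast between strains of the tissue difference, Cdk4 was at 0.021 thinned and Hmgb2 at -0.29 without both. Averaged over strains, Hmgb2 was at -0.012 with a sex term and -0.006 without those gene classes. The S phase difference in APP-PS1, brain minus blood, was -4.83 CPM on TMM sizes and -0.10 on the log2 scale.

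Leaving out single libraries gave these ranges. Within APP-PS1, brain over blood: 8 to 22 genes called (8 without APP-PS1 blood replicate 2, 22 without replicate 3), 0 to 1 of the 9 genes, Cdkn1b -0.15 to 0.89, Hmgb2 -0.029 to 0.33, S phase sum -80.5 to 169 CPM. Within WT: Ccnd3 -0.13 to 0.17, Cdkn1b -0.11 to 0.22, Hmgb2 -0.34 to 0.27, G2 and mitosis sum -20.3 to 193 CPM. In brain between strains: Ccnd2 -0.12 to 0.199 (0.199 without both libraries), Cdkn1b -0.13 to 0.28, H2afz -0.23 to 0.02, Hmgb2 -0.28 to 0.10, S phase sum -189.6 to 60.2 CPM, G2 and mitosis sum -183 to 30.4 CPM. In blood between strains: 0 to 3 genes called, Cdkn1b -0.84 to 0.23, Hmgb2 -0.53 to 0.015, S phase sum -82.9 to 27.8 CPM. In the contrast between strains of the tissue difference: 0 to 1 genes called, Cdkn1b -0.16 to 0.89, Hmgb2 -0.09 to 0.49. Averaged over strains: 45 to 66 genes called, 0 to 2 of the 9, Cdkn1b -0.072 to 0.45, Hmgb2 -0.10 to 0.23. Depth limits Stmn1, Mki67 and Top2a most, since 1 count is worth 4.66 to 36.2 CPM.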
